A study of Mus musculus with 11 samples.

Results

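The comparison described here sets mouse embryonic stem cells that can lose the SPT16 protein against cells that cannot, with both given the same plant hormone. It holds 6 of the 10 RNA-seq libraries in the deposited count table. Libraries were chosen by group label alone, as every tagged library under IAA (1 of line 10E, 2 of line 11D) and every untagged library under IAA (3). All genes were compared. The 4 ethanol libraries of the tagged lines are outside the comparison and are shown beside it.

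All cells are of the E14 mouse embryonic stem cell line, grown without feeders in serum with LIF, the GSK3 inhibitor CHIR99021 and a MEK inhibitor. In the tagged lines the protein bears V5 (an epitope for antibodies) and AID, a plant degron: with indole-3-acetic acid (IAA, the plant hormone auxin), the plant receptor TIR1 binds AID and the tagged protein goes to the proteasome. The columns of the untagged cells are named for TIR1, and their SPT16 has no tag. Tagged and untagged cells received 500 nM IAA for 24 hours, and the ethanol (EtOH) groups received an equal volume of the solvent for the same time. The labels name 2 tagged clones, and the table's columns name lines 10E and 11D without saying which clone is which. Of 4 labelled tagged IAA samples, 3 have a column in the table. Nothing in the labels says that replicates were separate cultures, so every p-value measures the spread between these libraries, which may be technical. A line is 1 clone, so with a single IAA library of 10E a change of that clone and a change of that library cannot be told apart.

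SPT16 and SSRP1 form FACT, a histone chaperone that takes H2A-H2B dimers off nucleosomes and puts them back as RNA polymerase II and replication forks pass. In embryonic stem cells FACT is known to be abundant and to sit at active genes and at the regulatory sites of pluripotency genes. Auxin derivatives and other indoles are known ligands of the aryl hydrocarbon receptor (AhR), and the comparison has the hormone given on both sides. Tagged and untagged cells also differ by the tag itself and by line. The comparison alone cannot tell these differences apart from the loss of SPT16.

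The 6 libraries held 3100127 to 13510163 counts. The first principal component of their log2 values held 74.5% of the variance and separated tagged from untagged, and the second held 9.41% and set 10E apart from the 11D libraries. Replicates of a group differed by more than sampling noise, with ratios of chi-square to degrees of freedom between 2.84 and 8.67, and each library was taken as its own sample. Levels are given in CPM, counts scaled to a common library size, after TMM scaling, which assumes that most genes do not change. They are relative: a change of all RNA per cell is not visible, and fewer cells of a type and less RNA per cell cannot be told apart in bulk samples. With library totals in place of TMM, the median of all genes moved from 0.02 to 0.32 on the log2 scale. Every log2 difference below is tagged minus untagged under IAA, with its standard error, and adjusted p-values are from edgeR's quasi-likelihood test over 17439 genes. Tagged values are given in the order 10E, 11D replicate 1, 11D replicate 2, untagged values in the order of their replicate numbers, and where levels are joined by "against" the tagged ones come first. Genes are described as higher or lower where they passed this test, and adjusted p-values are printed for the genes on which a result turns.

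Of 17439 genes tested, 4865 were called higher in the tagged cells (27.9%) and 4843 lower (27.8%) at an adjusted p under 0.05, 55.7% in all. For 31.6% of genes every tagged library lay above every untagged one, and for 29.9% every one lay below, 61.6% in all. With library totals alone these counts were 6899 and 3006, so that 69.7% of the calls were higher. Changes of at least 2-fold were more often upward: 2934 genes were called at least 2-fold higher (16.8%) and 1863 at least 2-fold lower (10.7%), 27.5% together. Line 11D alone gave 4906 higher (28.1%) and 4655 lower (26.7%), 54.8% in all, and line 10E alone gave 3583 higher (20.5%) and 3636 lower (20.8%), 41.4% in all. The plot of fold change against level shows the largest rises, and several of the largest falls, among genes at low levels. Among protein-coding genes the share called lower was larger at high levels, 58.7% at 100 CPM or more and 5.88% under 1 CPM. For scale, tagged cells in ethanol against the same untagged IAA libraries gave 222 genes higher (1.27%) and 400 lower (2.29%), 3.57% in all, and tagged IAA against tagged EtOH gave 5000 higher (28.7%) and 4860 lower (27.9%), 56.5% in all. These comparisons share libraries with the one described here, so their values stand side by side and are not independent support.

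**Figure D1:**
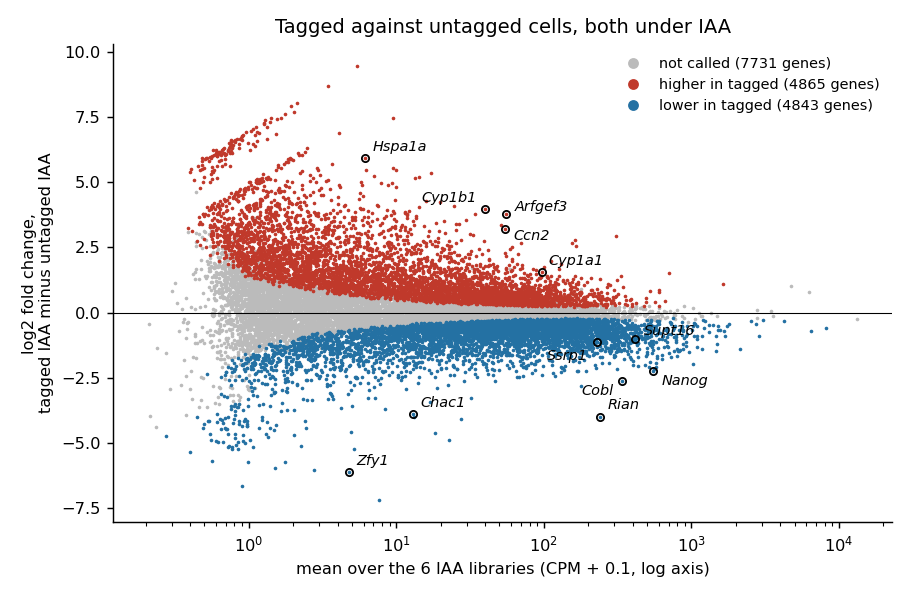
Log2 fold change of tagged against untagged cells under IAA (vertical axis) by mean level over the 6 IAA libraries (horizontal log axis, CPM), 1 point per gene. The 4865 genes called higher are red and the 4843 called lower are blue; circles mark genes named in the text.

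The messenger of the degraded protein was itself lower. Supt16, which encodes SPT16 and lies at chr14:52160414-52197416 on the minus strand (mm10), stood at 279, 253 and 286 CPM in the tagged libraries and 553, 538 and 577 CPM in the untagged ones. The groups did not overlap, and the log2 difference was -1.02 ± 0.10, adjusted p = 4.19e-07. In ethanol the tagged libraries held 384, 416, 364 and 390.1 CPM, between the other groups, with a difference from untagged IAA of -0.52 ± 0.08, adjusted p = 0.00715. That value sets ethanol against IAA as well as tagged against untagged cells, which cannot be told apart in it. Ssrp1, the other FACT subunit, at chr2:85037234-85047109 on the plus strand, stood at 146, 150.5 and 142 CPM against 296, 319.5 and 329 CPM, a difference of -1.11 ± 0.09, adjusted p = 1.48e-07. Its ethanol libraries held 313, 337, 282 and 308 CPM, at the level of the untagged cells. The count table measures RNA only, and the loss of SPT16 protein was not measured in these files.

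Pluripotency factors were lower almost throughout. Pluripotency rests on a circuit in which OCT4 (Pou5f1), SOX2 and NANOG bind each other's enhancers, joined in naive cells by ESRRB, TFCP2L1, KLF4 and other factors that LIF and GSK3 inhibition sustain. Of 30 tested members of the core and naive list, 25 were called lower (83.3%, against 27.8% of all genes) and 1 higher, and the median log2 difference was -1.39. The study's title concerns this list, which was chosen with earlier results of these data known, so its direction is a description.

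Nanog, the factor that locks in the naive state, was at 185, 196 and 197 CPM in the tagged libraries and 942, 929.7 and 819 CPM in the untagged ones, and at 668 to 815 CPM in the tagged ethanol libraries. The tagged IAA libraries fell together within a narrow range, far below every other library, with a difference of -2.23 ± 0.10, adjusted p = 1.03e-09. Its promoter is shown because it holds the element that OCT4 and SOX2 share. The RefSeq promoter table (GRCm38.p6, the mm10 assembly, 250 bases before to 50 after each start site) was searched on both strands. The pattern was the SOX half-site CATTGT, followed after any 1 base by the POU half-site ATGCAAA. It occurred for 1 of 27025 genes, each with 1 or more promoters, and that gene was Nanog. The Nanog window shown, of 1 of its 2 start sites, lies at chr6:122707239-122707538 on the plus strand. The capitals mark the match, on the opposite strand, 75 bases before the start site.
Nanog: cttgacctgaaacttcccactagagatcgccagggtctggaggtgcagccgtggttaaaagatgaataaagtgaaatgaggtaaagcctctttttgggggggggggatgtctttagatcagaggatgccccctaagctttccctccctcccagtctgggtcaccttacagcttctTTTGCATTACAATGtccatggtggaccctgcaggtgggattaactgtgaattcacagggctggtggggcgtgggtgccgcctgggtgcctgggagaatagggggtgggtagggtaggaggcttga
A match is a description of the letters and not evidence of binding.

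Esrrb, an orphan nuclear receptor of the naive circuit, was at 256, 299 and 265 CPM in the tagged libraries and 835, 948 and 895 CPM in the untagged ones (-1.73 ± 0.11, adjusted p = 9.20e-09). Fgf4, a known joint target of OCT4 and SOX2, was at 58.3, 64.98 and 56.4 CPM against 289, 294 and 266 CPM (-2.25 ± 0.10, adjusted p = 1.03e-09). Zfp42 (REX1), a standard naive marker, was at 105, 115 and 125 CPM against 462, 416 and 428 CPM (-1.95 ± 0.11, adjusted p = 5.27e-09). None of the tagged libraries reached the untagged range for these genes, and the fall was 3-fold or more in each.

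Sox2 and Klf4 were lower with more spread. Sox2 stood at 111, 121 and 80.5 CPM in the tagged libraries and 328, 341 and 301 CPM in the untagged ones (-1.62 ± 0.24, adjusted p = 3.81e-05). Its ethanol libraries ranged from 221 to 452 CPM, on both sides of the untagged values. Klf4 stood at 207, 174 and 125 CPM against 429.8, 501 and 447 CPM (-1.39 ± 0.17, adjusted p = 7.55e-06). Pou5f1 had the smallest fall of the core trio, with 419.8, 355 and 379 CPM against 622, 689 and 707 CPM (-0.78 ± 0.10, adjusted p = 1.07e-05). The tagged ethanol libraries held more Pou5f1, 728 to 936 CPM, than the untagged cells, a difference that did not pass the test (adjusted p = 0.123).

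The members outside the falling majority are few. Dppa3 (Stella) was the member called higher, at 5.26, 7.41 and 9.51 CPM in the tagged libraries and 3.70, 2.02 and 2.42 CPM in the untagged ones (1.37 ± 0.39, adjusted p = 0.00762). Sall4, Klf2, Lin28a and Nr0b1 were the 4 members not called, with differences of -0.24, -0.47, -0.21 and 0.01 (named after their values were seen, as was Ahr below). Tet1 and Tet2, the dioxygenases that oxidise methylcytosine in these cells, were lower as well, with differences of -1.41 ± 0.10 and -2.17 ± 0.13. The summed level of 10 stem cell markers was 1967 to 2241 CPM in the tagged and 5483 to 5745 CPM in the untagged libraries, and no marker was at 0 in either group.

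The best-known AhR targets were higher in the tagged cells, with both sides under IAA. AhR is a ligand-activated transcription factor that pairs with ARNT, binds sites with the core GCGTG and switches on enzymes of xenobiotic metabolism, among them the cytochromes P450 Cyp1a1 and Cyp1b1, and its own repressor Ahrr. Of 13 tested members of the pathway list, 5 were called higher (27.9% of all genes were) and 3 lower, and the median log2 difference was 0.26. The counts moved with the setting, from 3 higher and 2 lower with DESeq2 to 8 higher and 2 lower with library totals. The promoters of the 3 targets described first are shown because each holds that core. Capitals mark GCGTG or its complement on the other strand.
Cyp1a1, chr9:57697363-57697662, plus strand, match 54 bases before the start: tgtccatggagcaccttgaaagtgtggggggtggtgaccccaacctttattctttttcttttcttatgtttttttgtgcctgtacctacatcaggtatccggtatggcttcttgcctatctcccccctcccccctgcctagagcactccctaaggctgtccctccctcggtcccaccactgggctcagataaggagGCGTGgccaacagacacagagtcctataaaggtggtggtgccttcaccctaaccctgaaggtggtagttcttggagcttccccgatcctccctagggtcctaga
Cyp1b1, chr17:79715012-79715311, minus strand, match 76 bases before the start: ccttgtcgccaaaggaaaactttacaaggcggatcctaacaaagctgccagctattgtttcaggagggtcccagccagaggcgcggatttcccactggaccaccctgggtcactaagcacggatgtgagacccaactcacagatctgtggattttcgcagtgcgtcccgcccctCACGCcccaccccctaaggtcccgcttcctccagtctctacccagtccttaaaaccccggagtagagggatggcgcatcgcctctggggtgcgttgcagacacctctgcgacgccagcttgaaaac
Ahrr, chr13:74292282-74292581, minus strand, 3 matches from 107 to 27 bases before the start: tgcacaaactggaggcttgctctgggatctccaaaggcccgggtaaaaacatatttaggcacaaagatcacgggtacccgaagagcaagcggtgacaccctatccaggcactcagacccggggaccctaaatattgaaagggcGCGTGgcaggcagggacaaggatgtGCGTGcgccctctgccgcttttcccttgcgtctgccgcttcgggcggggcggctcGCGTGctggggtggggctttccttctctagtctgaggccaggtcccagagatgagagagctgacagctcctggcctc
The core is short and common: 35.2% of all genes in the promoter table and 54.3% of the tested genes in it have a promoter that holds it. Among genes called higher the share was 53.4%.

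Cyp1b1 showed the largest difference of the pathway. It was at 80.7, 63.6 and 78.8 CPM in the tagged libraries and 11.3, 5.73 and 0.466 CPM in the untagged ones, and at 0.655, 0, 0 and 0.807 CPM in the ethanol libraries. The groups under IAA did not overlap, and the difference was 3.98 ± 0.52, adjusted p = 1.23e-05. The ethanol cells were close to 0. Cyp1a1 was at 118, 139.7 and 173 CPM against 75.7, 65.05 and 6.89 CPM, and at 1.70, 0.593, 0.934 and 8.96 CPM in ethanol (1.53 ± 0.53, adjusted p = 0.0219). Ahrr was at 16.4, 12.5 and 14.8 CPM against 8.56, 8.76 and 1.30 CPM, and at 1.18, 0.593, 0.311 and 1.79 CPM in ethanol (1.42 ± 0.46, adjusted p = 0.0164). For all of these genes the untagged cells under IAA stood between the ethanol and the tagged IAA libraries, except for untagged replicate 3, which lay within the ethanol range for each.

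Untagged replicate 3 therefore carries part of these differences, and whether its response to IAA matched the other untagged libraries was not tested. Without it the log2 difference was 3.20 for Cyp1b1, 0.96 for Cyp1a1 and 0.81 for Ahrr, each still called (adjusted p = 2.06e-06, 0.0104 and 0.0305). Without untagged replicate 1 the Cyp1b1 difference was 4.89. Cyp1a1 and Ahrr lost their calls without 11D replicate 2 (adjusted p = 0.0585 and 0.0553) and with DESeq2 (adjusted p = 0.29 and 0.23). Cyp1b1 kept its call in all of these settings.

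The rest of the pathway was mixed. Cyp1a2, the liver paralogue of Cyp1a1, was at 2.63, 4.28 and 2.20 CPM in the tagged libraries and 0.694, 0.337 and 0.466 CPM in the untagged ones (2.49 ± 0.56, adjusted p = 0.00143). Arnt2 was higher (1.51 ± 0.23), whereas Arnt, the usual partner of AhR, was lower (-0.97 ± 0.11, adjusted p = 2.16e-06). Tiparp and Nqo1, further known targets, were not called, at differences of -0.06 ± 0.16 and 0.38 ± 0.19, and the sign of Tiparp turned with library totals (0.24). Nqo1 was at 70.8, 77.2 and 87.4 CPM against 75.4, 63.9 and 39.4 CPM, and the lowest untagged value was again replicate 3. Its call depended on the setting: Nqo1 passed with library totals (0.68, adjusted p = 0.00501), without 10E replicate 1 (0.52, adjusted p = 0.0478) and, among others, without untagged replicate 1 (0.57, adjusted p = 0.0204). Ahr itself was not called (0.14).

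**Figure D2:**
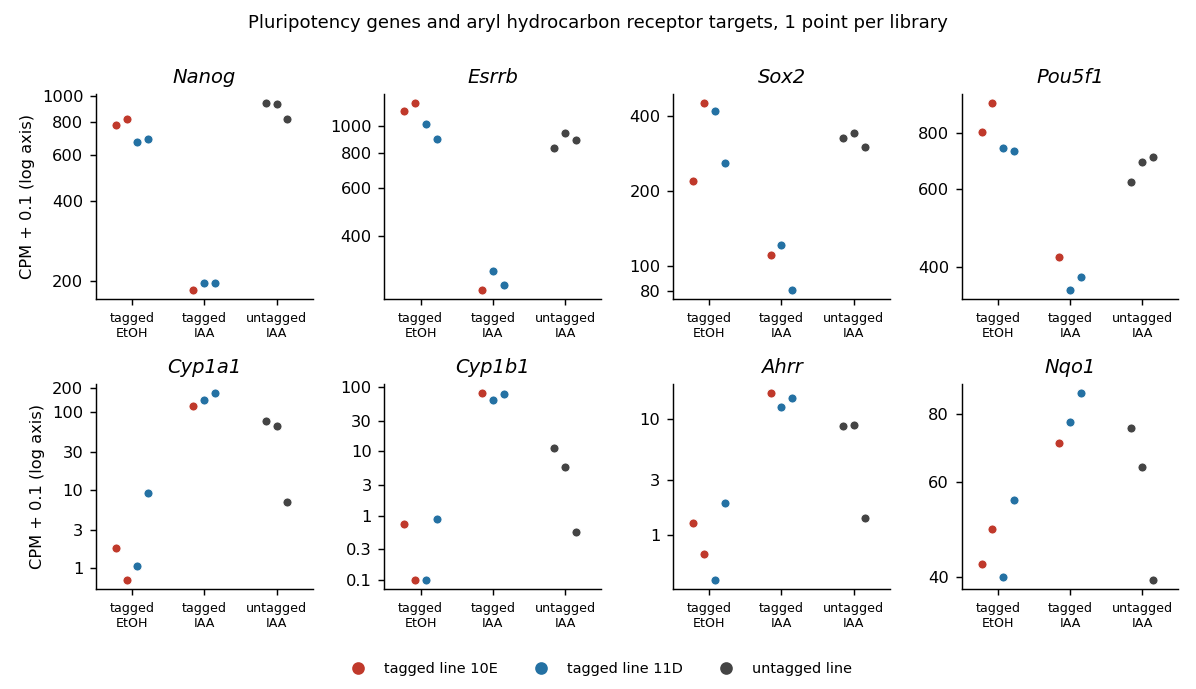
Levels of 4 pluripotency genes and 4 AhR targets (CPM plus 0.1, log axes) in each of the 10 libraries, 1 point per library, coloured by line. The tagged IAA libraries lie below every other library for the pluripotency genes and above every other library for Cyp1a1, Cyp1b1 and Ahrr, and for the AhR targets the lowest untagged point is replicate 3.

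The largest rises were from genes almost silent in untagged cells. Pou4f3, a POU factor of sensory neurons, had 239 counts over the 3 tagged libraries and 0 over the 3 untagged ones, at least 71.1-fold higher after TMM scaling, with the untagged group set to its floor of 3 counts in all. Itga4, an integrin subunit, had 143 counts against 0, at least 42.5-fold higher. Trim67 had 383 counts against 2, a pooled ratio of 171 with a counting interval of 47 to 1420. These genes were nearly off in ethanol too, under 0.4 CPM in each of the 4 libraries. Plch2, a phospholipase C, was at 19.1, 17.96 and 18.2 CPM in the tagged libraries and 0, 0.674 and 0.373 CPM in the untagged ones (5.55 ± 0.43, adjusted p = 7.77e-08, and 7.01 with all libraries thinned to equal depth). Atp12a, a proton pump subunit, was at 14.04, 20.5 and 23.02 CPM against 0.926, 0 and 0.373 CPM (5.46 ± 0.45, adjusted p = 1.13e-07, 6.10 without untagged replicate 1 and 4.64 at equal depth). With so few reads in untagged cells the size of such a difference is poorly fixed, while its direction was the same in all the settings run.

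Abundant genes gave firmer values. Among genes with a mean of at least 50 CPM, the largest rise was that of Arfgef3, at 99.4, 104 and 105 CPM in the tagged libraries and 9.03, 6.24 and 7.45 CPM in the untagged ones (3.77 ± 0.19, adjusted p = 1.87e-09). Hspa2, a testis-enriched HSP70, was at 116, 82.4 and 80.96 CPM against 7.87, 8.76 and 11.4 CPM (3.34 ± 0.17, adjusted p = 1.99e-09). Mknk2, a kinase that phosphorylates the cap-binding factor eIF4E, was at 556, 579 and 501 CPM against 60.4, 80.9 and 75.1 CPM (2.92 ± 0.13, adjusted p = 1.03e-09). For each of them the libraries fell into separate ranges for tagged and untagged cells. Carhsp1, an RNA-binding protein with a cold-shock domain, showed the same separation at 257, 296 and 296 CPM against 33.8, 41.6 and 43.4 CPM (2.78 ± 0.11, adjusted p = 5.33e-10).

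Of the genes that fell furthest, several were near 0 in tagged cells. Mipol1 was at 0, 0.570 and 0.582 CPM in the tagged libraries and 17.8, 11.1 and 14.8 CPM in the untagged ones (-7.20 ± 0.59, adjusted p = 1.10e-07), and without 10E replicate 1, where it is 0, the difference was -4.58. Chac1, a glutathione-degrading enzyme that ATF4 induces, was at 2.85, 1.14 and 0.841 CPM against 22.9, 26.8 and 23.1 CPM (-3.90 ± 0.29, adjusted p = 5.18e-08, and -4.70 without 10E replicate 1). Rasgrp1, an exchange factor for Ras, was at 3.73, 2.00 and 2.33 CPM against 32.9, 28.8 and 31.4 CPM (-3.41 ± 0.23, adjusted p = 1.69e-08). Among genes with a mean of at least 50 CPM the largest falls were those of the imprinted RNAs Rian and Meg3, which differed between the tagged lines and are described with them. Cobl, an actin nucleator, was at 100.0, 101 and 85.4 CPM against 566, 620.1 and 571 CPM (-2.61 ± 0.11, adjusted p = 5.33e-10). Tiam1, a Rac exchange factor, was at 25.4, 19.4 and 16.2 CPM against 108, 131 and 109 CPM (-2.46 ± 0.13, adjusted p = 3.18e-09). The ethanol libraries held 512 to 601 CPM of Cobl and 96.5 to 122 CPM of Tiam1, overlapping the untagged range or lying just below it.

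Immediate early genes, which growth factors and stress switch on within minutes and which encode the AP-1 proteins FOS, JUN and relatives, were mostly higher. Of 20 tested members, 16 were called higher and none lower, with a median difference of 2.12, while fits on the IAA libraries alone called 1 member lower. Fos was at 19.1, 27.1 and 21.9 CPM in the tagged libraries and 0.463, 2.02 and 1.49 CPM in the untagged ones (3.91 ± 0.31, adjusted p = 8.17e-08). Atf3, a stress-induced repressor, was at 41.01, 37.1 and 37.1 CPM against 4.86, 2.86 and 3.07 CPM (3.49 ± 0.26, adjusted p = 4.41e-08). Btg2, an antiproliferative gene that p53 also controls, was at 251, 259.9 and 293 CPM against 40.3, 42.97 and 41.7 CPM (2.66 ± 0.13, adjusted p = 1.55e-09). Their ethanol libraries held 1.28 to 4.67, 2.49 to 5.89 and 39.6 to 67.1 CPM, well under every tagged IAA library. Myc, in the same list, was not called, at 13.6, 10.8 and 6.01 CPM against 4.63, 7.08 and 10.5 CPM, and its groups overlapped.

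The p53 targets split by member. Of 32 tested, 17 were called higher and 4 lower (53.1% and 12.5%, against 27.9% and 27.8% of all genes), with a median of 0.33. Perp, a desmosomal death effector, was at 37.1, 55.9 and 71.8 CPM in the tagged libraries and 4.17, 4.55 and 3.91 CPM in the untagged ones (3.54 ± 0.18, adjusted p = 1.87e-09). Pmaip1 (NOXA), a BH3-only death protein, was at 69.1, 31.1 and 35.3 CPM against 5.09, 5.39 and 5.50 CPM (3.16 ± 0.16, adjusted p = 1.87e-09). Its 10E value stood above both 11D values. The arrest gene Cdkn1a (p21) was called with a small difference, at 273, 278 and 261 CPM against 202, 226 and 212 CPM (0.35 ± 0.09, adjusted p = 0.00358). Mdm2, the standard feedback target of p53, was not called (0.13 ± 0.10), though with library totals it passed (0.43). Among apoptosis regulators Bcl2l11 (BIM), another BH3-only protein, was higher at 55.7, 47.9 and 50.8 CPM against 11.8, 9.61 and 11.9 CPM (2.23 ± 0.15), and Xiap, an inhibitor of caspases, was lower (-1.26 ± 0.14). That list as a whole had 9 members higher and 6 lower of 28 (32.1% and 21.4%, near the 27.9% and 27.8% of all genes), and the sign of its median turned with library totals (-0.07 to 0.23).

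Heat shock genes were called in both directions, with 6 of 19 tested members higher (31.6%, near the 27.9% of all genes) and 10 lower (52.6%, against 27.8%), and 8 higher and 5 lower with library totals. The inducible HSP70 genes were higher. Hspa1a was at 19.1, 7.41 and 9.18 CPM in the tagged libraries and 0.463, 0.169 and 0.0932 CPM in the untagged ones (5.93 ± 0.45, and 6.54 without untagged replicate 1). Hspa1b was at 36.8, 25.4 and 13.00 CPM against 1.85, 1.85 and 2.14 CPM (3.69 ± 0.28). These near-identical genes share reads, so the split between them is uncertain. The co-chaperone Dnajb1 was higher (1.42 ± 0.12). The cytosolic chaperone Hspa4 (-0.95 ± 0.10) and the mitochondrial pair Hspd1 (-0.89 ± 0.10) and Hspe1 (-0.74 ± 0.10), whose genes overlap on opposite strands, were lower. In the unfolded protein response, 9 of 25 members were called higher and 8 lower (36% and 32%, near the shares of all genes), and 15 higher and 4 lower with library totals. Creld2 (1.20 ± 0.14) and Hyou1 (0.64 ± 0.09) were higher, and Xbp1, the spliced factor of that response, was lower at 24.1, 27.6 and 26.2 CPM against 62.3, 68.9 and 72.5 CPM (-1.42 ± 0.12).

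Targets of ATF4, the factor of the integrated stress response that drives amino acid synthesis and tRNA charging, were mostly lower: of 28 tested members, 5 were called higher and 16 lower, and the median log2 difference was -1.01. Asns, asparagine synthetase, was at 293, 268 and 279 CPM in the tagged libraries and 984, 994 and 967 CPM in the untagged ones (-1.79 ± 0.10, adjusted p = 3.17e-09). Pck2, mitochondrial PEP carboxykinase, was at 38.4, 35.1 and 30.4 CPM against 131, 139.7 and 143 CPM (-1.97 ± 0.13, adjusted p = 2.00e-08). Ddit4 (1.67 ± 0.16) and Atf5 (1.61 ± 0.22) were higher, and Ddit3 (CHOP) was not called (0.45 ± 0.33). The enzymes that charge tRNAs showed the same direction: of 20 tested members, 2 were called higher and 14 lower, and the median log2 difference was -0.82. Dars, for aspartate, was at 65.6, 62.4 and 69.7 CPM against 241, 228 and 203 CPM (-1.76 ± 0.11). Wars, for tryptophan, was one of the exceptions at 193, 205 and 204 CPM against 92.1, 111 and 115 CPM (0.90 ± 0.11). With library totals, 13 synthetases were called lower and 5 higher.

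Ribosomal and cell cycle genes were lower by small amounts. For cytosolic ribosomal proteins, of 87 tested members, 1 was called higher and 64 lower, and the median log2 difference was -0.63. With library totals 50 were lower and 4 higher. Rpl7 was at 533, 486 and 572 CPM in the tagged libraries and 1239.8, 1191 and 1221 CPM in the untagged ones (-1.20 ± 0.10), and Rpl39 had one of the larger falls at 103, 82.7 and 96.5 CPM against 396, 269 and 262 CPM (-1.68 ± 0.16). For G2 and M phase genes, of 31 tested members, 0 were called higher and 22 lower, and the median log2 difference was -0.44. For S phase genes, of 38 tested members, 3 were called higher and 25 lower, and the median log2 difference was -0.42. With library totals 11 G2 and M phase genes were lower and 3 higher, and 16 S phase genes were lower and 8 higher. Top2a, the topoisomerase of mitotic chromosomes, was at 365, 390.5 and 396 CPM against 1269.9, 1146 and 1191 CPM (-1.66 ± 0.10). Pola1, the catalytic subunit of DNA polymerase alpha, was at 71.3, 72.7 and 78.2 CPM against 293, 244 and 276 CPM (-1.88 ± 0.11), and Mcm3 of the replicative helicase was also lower (-1.18 ± 0.10). Replication-dependent histone genes were mostly not called (1 higher and 10 lower of 58). Their median of -0.18 turned positive with library totals (0.12) and without 11D replicate 2 (0.20), and was -0.60 without 10E replicate 1. The tagged ethanol libraries stood above the untagged IAA ones, at a list median of 0.88, though 0 of these histone genes passed the test there. Measured from tagged ethanol instead, the tagged IAA libraries had a list median of -1.37. There 31 of the 58 passed as lower and 1 as higher. How much the ethanol offset hides in the comparison with untagged cells was not tested.

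Metabolic lists leaned lower. For glycolysis and hypoxia genes, of 29 tested members, 2 were called higher and 16 lower, and the median log2 difference was -0.44. Slc2a3, a high-affinity glucose transporter, was at 843, 959 and 949.5 CPM in the tagged libraries and 2018, 2117 and 2109.8 CPM in the untagged ones (-1.21 ± 0.11). Pfkp, a phosphofructokinase, was at 209, 169 and 164 CPM against 487, 577 and 628 CPM (-1.60 ± 0.11). Aldoc (1.68 ± 0.20) and Pfkfb3 (1.37 ± 0.19) were the members called higher. For sterol and fatty acid synthesis, of 32 tested members, 4 were called higher and 15 lower, and the median log2 difference was -0.29, but with library totals 9 were higher and 8 lower and the median was 0.01. Srebf1, the lipogenic master factor, was higher at 176, 230.3 and 171 CPM against 63.9, 93.7 and 94.7 CPM (1.14 ± 0.16), and Elovl6, a fatty acid elongase, was lower at 137, 138 and 153 CPM against 489, 455 and 429 CPM (-1.69 ± 0.11). Among 23 NRF2 and glutathione genes, 4 were higher and 8 lower (17.4% and 34.8%, against 27.9% and 27.8% of all genes). With library totals 7 were higher and 6 lower. Hmox1, haem oxygenase, was higher at 78.3, 136 and 115 CPM against 47.2, 47.02 and 47.1 CPM (1.07 ± 0.11). Gss, glutathione synthetase, was lower (-1.32 ± 0.14).

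Factors that work with or beside FACT were called in both directions. In the elongation list, of 30 tested members, 12 were called higher and 10 lower, and the median log2 difference was 0.09. These shares of 40% and 33.3% compare with 27.9% and 27.8% of all genes. Hexim1, which holds the elongation kinase P-TEFb inactive, was at 198, 222 and 193 CPM in the tagged libraries and 50.5, 63.9 and 53.2 CPM in the untagged ones (1.86 ± 0.13, adjusted p = 2.52e-08). Ctr9, of the PAF1 complex that travels with the polymerase, was at 235, 262 and 279.6 CPM against 96.5, 103 and 99.6 CPM (1.34 ± 0.10, adjusted p = 3.81e-08), and its partner Paf1 was higher too (1.36 ± 0.12). Aff1, a scaffold of the super elongation complex, was lower at 185, 213 and 191 CPM against 529, 567 and 508 CPM (-1.47 ± 0.10, adjusted p = 2.13e-08). None of these groups of libraries overlapped.

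Histone chaperones other than FACT were more often lower: of 28 tested members, 4 were called higher and 16 lower, and the median log2 difference was -0.43. With library totals the split was 10 higher and 11 lower. Npm1, the abundant nucleolar chaperone, was at 776, 775 and 758 CPM in the tagged libraries and 2387, 1999.8 and 2061 CPM in the untagged ones (-1.48 ± 0.13). Atrx, which with DAXX deposits H3.3, was at 152, 164 and 165 CPM against 716, 596 and 631 CPM (-2.03 ± 0.12). Ubn1, a subunit of the HIRA complex, was higher at 149, 151 and 159 CPM against 59.7, 56.6 and 67.9 CPM (1.31 ± 0.10). Polycomb genes, whose complexes write H2AK119 ubiquitin and H3K27 methylation, also leaned lower: of 33 tested members, 7 were called higher and 19 lower, and the median log2 difference was -0.58. Mtf2, a PRC2 subunit that binds CpG islands, was at 228, 222 and 216 CPM against 997, 758 and 709 CPM (-1.88 ± 0.13). Jarid2, another PRC2 partner, was at 146, 166 and 146 CPM against 378, 444 and 429 CPM (-1.47 ± 0.10), while Pcgf5, a PRC1 subunit, was higher at 21.7, 21.9 and 24.8 CPM against 5.09, 5.90 and 6.52 CPM (1.92 ± 0.22). Of 39 chromatin remodelers tested, 18 were called lower and 4 higher with TMM (median -0.27), but 10 lower and 12 higher with library totals (median 0.02). Arid1a (-1.45 ± 0.12) and Chd2 (-1.21 ± 0.10) were among those lower, and Baz1a (1.15 ± 0.18) among those higher. In DNA methylation genes, 5 of 18 were higher and 7 lower (27.8% and 38.9%), with Uhrf1, which guides maintenance methylation, lower (-1.22 ± 0.11) beside the Tet genes. The sign of that list's median depended on the setting (-0.07 with TMM, 0.22 with library totals).

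Signalling lists held genes that moved both ways. In the LIF and STAT3 list, 8 of 17 were lower and 3 higher (6 and 5 with library totals): Lif itself was higher (1.47 ± 0.19) and its target Pim1 lower (-1.18 ± 0.10). In the FGF and ERK list, 10 of 21 were lower and 5 higher. Spred2, an inhibitor of Ras-ERK signalling, was lower at 46.3, 48.2 and 42.7 CPM in the tagged libraries and 111, 119.8 and 117 CPM in the untagged ones (-1.35 ± 0.11). Egr1, an ERK-induced factor, was higher at 5.92, 17.7 and 4.53 CPM against 0.231, 2.36 and 0.559 CPM (2.87 ± 0.75, and 4.004 without untagged replicate 2). The median of the Wnt list was -0.24, with 10 of 23 lower and 3 higher, and it was 0.05 with library totals. Dkk1, a secreted Wnt antagonist, was higher at 17.7 ± 6.35 CPM (SD, n = 3) against 0.729 ± 0.495 CPM (SD, n = 3), a log2 difference of 4.95 ± 0.40 (4.24 without untagged replicate 3), and Notum, a Wnt deacylase, was lower (-1.76 ± 0.21).

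Id1 and Id2, BMP targets that block differentiation factors, were the largest rises of the BMP list, in which 8 of 18 were higher and 3 lower. Id1 was at 31.1, 14.3 and 7.70 CPM in the tagged libraries and 0.926, 1.52 and 1.68 CPM in the untagged ones (3.60 ± 0.41), and Id2 at 45.2, 15.7 and 18.1 CPM against 3.24, 0.506 and 1.68 CPM (4.03 ± 0.35). The 10E library was the highest for both, and without it the differences were 2.83 and 3.35. At equal depth the Id2 difference was 4.71. Without 10E replicate 1 the median of the BMP list went from 0.33 to -0.01. In the Nodal list, 5 of 17 were higher and 6 lower (29.4% and 35.3%, near the shares of all genes). The ligand Gdf3 (-1.39 ± 0.11) and the co-receptor Tdgf1 (-1.22 ± 0.10) were among those lower. Ccn2, a target of the Hippo effector YAP, was higher at 107, 110.3 and 73.98 CPM against 12.5, 12.8 and 8.20 CPM (3.18 ± 0.25), and Tead1, the DNA-binding partner of YAP, was lower at 199, 221 and 198 CPM against 679.7, 662 and 632 CPM (-1.69 ± 0.10). In the prostaglandin and NF-kappaB list, 8 of 18 were higher and 2 lower. Ptgs2 (COX-2), which makes prostaglandins, was at 21.5, 35.6 and 32.9 CPM against 1.16, 3.03 and 0.466 CPM (4.27 ± 0.38), a difference of 5.28 without untagged replicate 2 and 3.61 without untagged replicate 3. Of 18 interferon response genes 9 were higher and 4 lower (50% and 22.2%, against 27.9% and 27.8% of all genes). Zbp1, a sensor of Z-form nucleic acid, was higher at 6.14, 6.27 and 6.92 CPM against 0.694, 0.337 and 0.652 CPM (3.46 ± 0.38), while Ifitm3 was lower (-0.58 ± 0.14).

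Genes of the 2-cell-like program, transcribed in the early embryo and in few cells of a stem cell culture at a time, were higher almost throughout: of 16 tested members, 15 were called higher and 0 lower, and the median log2 difference was 2.35. In tagged ethanol against untagged IAA libraries the median was 0.62, with 0 called. In tagged IAA against tagged ethanol libraries it was 1.15, with 11 members higher and 0 lower. Members can pass the filter on low counts through the group where they are high. Zscan4d was at 25.2, 13.4 and 14.4 CPM in the tagged libraries and 2.78, 3.71 and 3.63 CPM in the untagged ones (2.44 ± 0.22). Usp17le was at 48.3, 29.6 and 33.6 CPM against 2.78, 2.19 and 1.58 CPM (4.25 ± 0.25). Zscan4 and Usp17l genes have near-identical copies, so the split among them is uncertain. Bulk counts do not tell more cells in that state from more RNA per cell. In the germ cell list, of 23 tested members, 12 were called higher and 3 lower, and the median log2 difference was 0.97, with Ddx4 (VASA), an RNA helicase of germ cells, at 16.9, 12.3 and 17.01 CPM against 3.47, 3.03 and 2.33 CPM (2.49 ± 0.31).

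Hox and clustered protocadherin genes held further rises. Of 20 tested Hox genes, which pattern the body axis and which Polycomb normally silences here, 9 were called higher and 1 lower, and 19 more in the table were too low to test. Hoxb9 was at 44.5, 50.4 and 50.6 CPM in the tagged libraries and 4.17, 5.39 and 4.01 CPM in the untagged ones (3.40 ± 0.22). Clustered protocadherins, neuronal adhesion molecules each with its own promoter, had 25 of 57 members tested, of which 20 were called higher and none lower. Pcdhgc3 was at 72.8, 82.1 and 69.5 CPM against 30.5, 39.6 and 34.5 CPM (1.08 ± 0.13). Gamma cluster genes share 3′ exons, so these members are not independent counts. The filter on low counts lets genes pass through the group where they are high, so in lists of mostly silent genes the members tested are not a fair sample of the list.

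Markers of other lineages were called in both directions, and their summed levels were set by a few members. Of 16 trophectoderm genes tested, 6 were called higher and 3 lower (37.5% and 18.8%, against 27.9% and 27.8% of all genes). At equal depth, and without 11D replicate 2, 3 were higher and 3 lower. The sum of 10 markers was 64.9 to 81.8 CPM in the tagged and 53.5 to 63.2 CPM in the untagged IAA libraries, without overlap. The tagged ethanol libraries held 63.6 to 80.3 CPM, so the higher sum was present without IAA. Krt8, a keratin of simple epithelia, was higher at 20.8, 29.4 and 22.4 CPM in the tagged libraries and 9.49, 13.3 and 9.60 CPM in the untagged ones (1.09 ± 0.20), as was the factor Gata3 (1.24 ± 0.44, named after its values were seen). Cdx2, a trophectoderm factor, was lower than in untagged IAA cells both under IAA (-1.99 ± 0.39, and -3.51 without 10E replicate 1) and in the tagged ethanol libraries (-3.03). Elf5, a defining marker, was at 0 in both IAA groups.

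Of 12 primitive endoderm genes tested, 4 were called higher and 3 lower (33.3% and 25%, near the 27.9% and 27.8% of all genes). Their marker sum of 168 to 224 CPM against 463 to 511 CPM was mostly Lama1, a basement membrane laminin, at 201, 154 and 138 CPM in the tagged libraries and 450.4, 494 and 481 CPM in the untagged ones (-1.48 ± 0.10). Dab2, an endocytic adaptor of that lineage, was higher at 5.92, 4.28 and 3.82 CPM against 1.16, 1.35 and 0.373 CPM, and so was the receptor Pdgfra at 5.92, 3.42 and 7.18 CPM against 2.55, 2.02 and 0.745 CPM (1.90 ± 0.44). The defining factors Gata6, Sox17 and Sox7 were at most 1.14 CPM in every IAA library. Of 10 neural genes tested, 6 were called higher and 2 lower, with a median of 1.23. The number called higher was 3 with DESeq2, with a replicate block, at equal depth and without 10E replicate 1. The medians in these settings were 0.82, 1.12, 0.33 and 0.64, with 7 members tested in each of the last 2. The neural marker sums overlapped at 115 to 152 CPM against 131 to 161 CPM. Neurod1, a proneural factor, was higher at 7.02, 12.3 and 10.02 CPM against 0, 0.337 and 1.02 CPM (3.84 ± 0.50, and 5.38 without untagged replicate 3), and so was Nes, nestin (0.67 ± 0.12), while Ncam1, a neural adhesion molecule, was lower (-1.53 ± 0.13). Of 8 mesendoderm genes tested, 1 was called higher and 2 lower (12.5% and 25%), and the sum was 13.3 to 39.9 CPM against 17.4 to 22.4 CPM. The fibroblast sum of 2073 to 2418 CPM against 3622 to 4169 CPM was mostly fibronectin (Fn1), at 2118, 2016 and 1752 CPM against 3424, 3885 and 3884 CPM. Col3a1, Dcn, Lum and Postn, which define fibroblasts, were at 0 in every untagged library, and in the tagged libraries none passed 1 CPM. In the formative and primed epiblast list, 7 of 20 were higher and 4 lower (35% and 20%), near the shares of all genes, with Etv5 lower (-0.90 ± 0.10) and Cldn6, a claudin, higher at 25.9, 22.5 and 33.9 CPM against 3.01, 3.20 and 6.61 CPM (2.56 ± 0.31). The part of other cell types in the results above was not tested.

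Cell surface genes were more often higher. In the list of integrins, collagens and adhesion genes, of 44 tested members, 21 were called higher and 9 lower, and the median log2 difference was 0.69. Col11a2 was at 17.1, 20.5 and 16.04 CPM in the tagged libraries and 0.694, 1.85 and 1.12 CPM in the untagged ones (3.80 ± 0.34), whereas Itgb5 was lower at 32.02, 35.1 and 31.2 CPM against 82.2, 81.7 and 75.8 CPM (-1.30 ± 0.11). For epithelial junction genes, of 27 tested members, 14 were called higher and 5 lower, and the median log2 difference was 0.69. Esrp2, an epithelial splicing regulator, was at 39.9, 43.3 and 42.9 CPM against 10.9, 14.2 and 12.9 CPM (1.70 ± 0.15). Dsg2, a desmosomal cadherin, was lower (-1.15 ± 0.10). Of 1523 chemosensory receptor genes in the count table only 30 were tested, and genes can pass the filter through the group where they are high. Of the 30, 11 were higher and 6 lower (36.7% and 20%), and at equal depth 6 were higher and 5 lower of 15 tested. The sum over the whole list was 100.2 to 120.6 CPM against 72.8 to 112 CPM, with overlap. Olfr307 had 53 counts in tagged and 0 in untagged libraries, at least 15.8-fold higher. The umami receptor gene Tas1r1 was at 11.6, 15.7 and 17.98 CPM against 1.16, 2.70 and 2.42 CPM (2.67 ± 0.29).

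**Figure D3:**
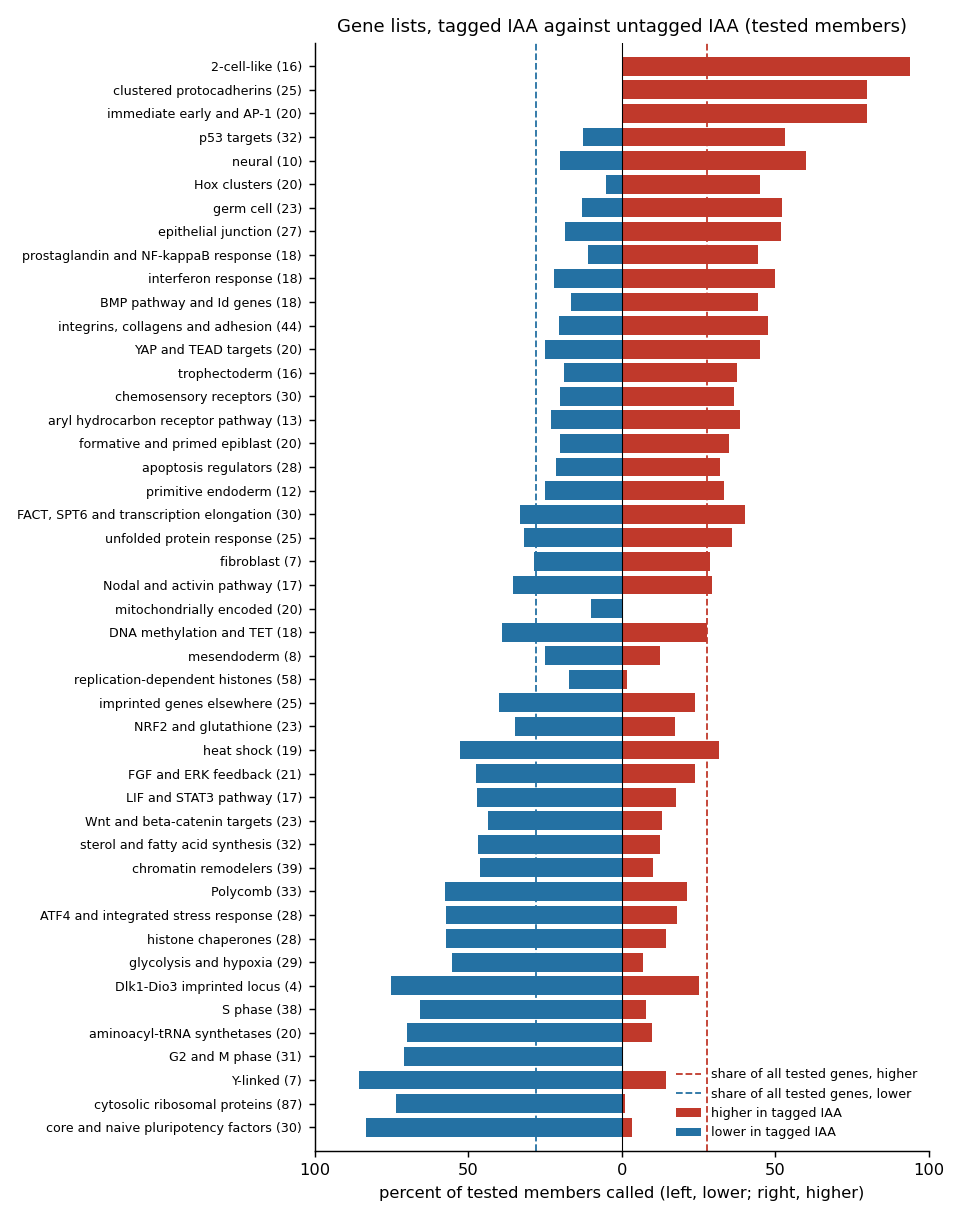
Share of the tested members of each of 46 gene lists called higher (red, to the right) or lower (blue, to the left) in tagged against untagged cells under IAA, with the number tested in parentheses. Dashed lines give the shares over all tested genes, 27.9% higher and 27.8% lower. Pluripotency factors reach 83.3% lower. The 2-cell-like genes reach 93.8% higher among the 16 tested of 21 in the table, which genes can enter through the group where they are high.

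Long genes were lower than short ones, a grouping made after the values were seen. Gene span is the annotated distance from first to last base, introns included, taken for the 17022 tested genes that matched 1 gene of the GENCODE vM21 annotation (GRCm38, that is mm10). Among protein-coding genes with a mean of at least 20 CPM, the median difference was -0.12 for the 534 genes under 5 kb and -0.83 for the 264 genes of 200 kb or more. In the longest class 78.8% of genes were called lower and 3.79% higher. The classes between ran -0.03, -0.05, -0.13, -0.30 and -0.51 in order of length. Against the same untagged IAA cells, the medians of the tagged ethanol libraries ran 0.16, 0.10, 0.06, -0.03, -0.09, -0.08 and -0.03 from the shortest class to the longest, so a smaller decline was present up to 100 kb. The number of exons and the summed exon length also moved with the result: the median was -0.31 for genes of 20 exon blocks or more and -0.35 for genes with 8 kb of exons or more. Level moved with it too, from 0.45 among protein-coding genes at 1 to under 5 CPM to -0.39 at 100 CPM or more. How much of the pattern goes with each was not tested.

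The X chromosome stood below every autosome. The median over its 526 tested genes was -0.39, with 230 called lower (43.7%) and 100 higher, while autosome medians ran from -0.13 on chromosome 13 to 0.14 on chromosome 8. Within protein-coding genes of at least 20 CPM the X median was -0.31 against -0.05 for autosomes under 20 kb of span, and -1.21 against -0.57 at 100 kb or more. Of the 40 X-linked genes of 100 kb or more, 38 were called lower and 1 higher. Diaph2, a formin (-2.43 ± 0.12), Usp9x, a ubiquitin protease (-1.99 ± 0.12), and Kdm6a, an H3K27 demethylase (-1.55 ± 0.12), were among those lower, and the BCL6 corepressor Bcor was the one higher (0.47 ± 0.11). These genes were named after their values were seen. For the tagged ethanol libraries the X medians against the untagged IAA cells were 0.01 under 20 kb, -0.18, -0.28 and, at 100 kb or more, -0.19. With library totals the medians of long genes stayed below 0 (-0.53 at 200 kb or more, -0.92 for long X-linked genes), while short genes turned positive on all chromosomes together (0.17 under 5 kb). Over the other settings the long X-linked median ranged from -1.25 to -1.10.

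**Figure D4:**
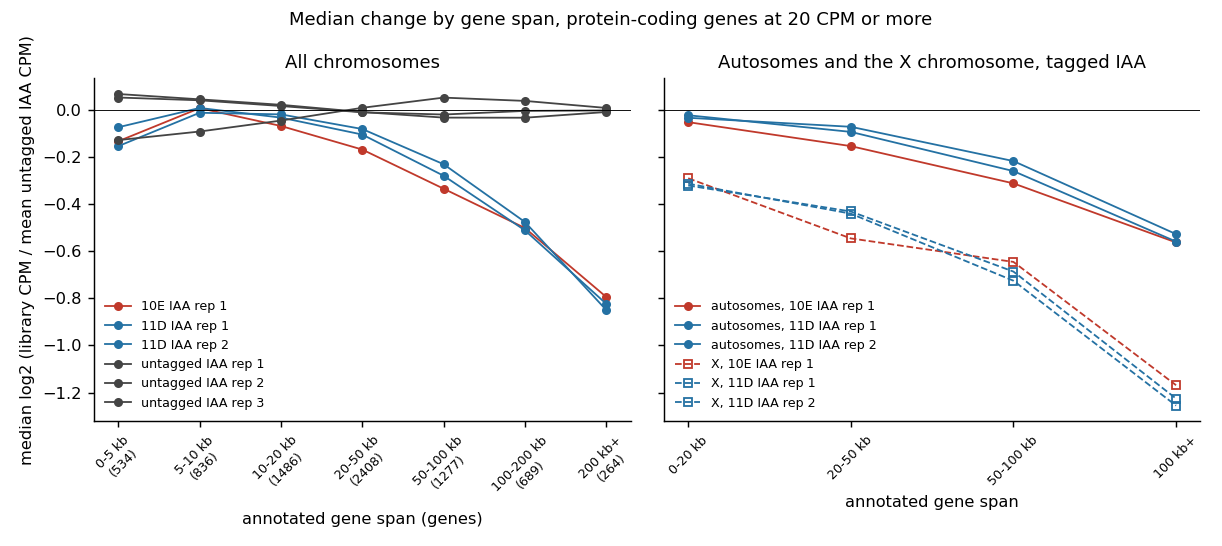
Median log2 ratio of each library to the mean of the untagged IAA libraries (vertical axis) by annotated gene span for protein-coding genes at 20 CPM or more: left, all chromosomes and all 6 IAA libraries, with the number of genes; right, autosomes (filled, solid) and X (open, dashed) in the tagged libraries. All 3 tagged libraries decline with span, to about -0.8 in the longest class, the untagged libraries stay near 0, and X lies below the autosomes in every class.

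E14 is a male line, and Y-linked genes were lower too: of 7 tested members, 1 was called higher and 6 lower, and the median log2 difference was -1.51. Ddx3y, an RNA helicase, was at 27.2, 52.4 and 50.4 CPM in the tagged libraries and 129, 89.1 and 90.3 CPM in the untagged ones (-1.45 ± 0.15). Eif2s3y, a translation initiation factor, was at 51.98, 70.4 and 70.7 CPM against 112, 94.7 and 83.4 CPM (-0.67 ± 0.12). Line 10E had the lowest value and untagged replicate 1 the highest of the IAA libraries for each. In the tagged ethanol libraries 4 of the 7 were also called lower than in untagged IAA cells, among them Eif2s3y (-0.42, adjusted p = 0.0408), whose change between IAA and ethanol in the tagged lines was not called (-0.25, adjusted p = 0.073). Zfy1 was at 0, 0.570 and 1.10 CPM against 8.79, 8.93 and 8.57 CPM (-6.11 ± 0.54, and -3.12 without 10E replicate 1), and at 0.786, 0.790, 4.36 and 3.32 CPM in ethanol. Usp9y, called higher at 2.19, 1.14 and 0.647 CPM against 0.231, 0.674 and 0.0932 CPM, lost its call without untagged replicate 3 (adjusted p = 0.126) and with DESeq2 (adjusted p = 0.0983).

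Classes of noncoding RNA differed in direction. Of 167 antisense genes with a mean of at least 2 CPM, 83 were called higher and 20 lower, with a median of 0.69. These shares of 49.7% and 12.0% compare with 27.9% and 27.8% of all genes. Most of these genes were at low levels, with a median of 3.08 CPM in untagged cells. Protein-coding genes at 1 to under 5 CPM had 35.1% higher and 13.9% lower, with a median of 0.45. How much of the antisense result goes with level was not tested. Reads of an antisense gene and its partner cannot be told apart where the counting ignored strand, and the setting used is not given in the sources used here. Of 12 small nucleolar RNA host genes (Snhg), 10 were called lower and none higher, with a median of -1.16. Snhg5 was at 17.98, 21.9 and 22.1 CPM in the tagged libraries and 117, 112 and 105 CPM in the untagged ones (-2.48 ± 0.13, adjusted p = 1.87e-09).

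The tagged lines differed from each other at few genes. Under IAA, 16 genes were higher (0.0917%) and 28 lower (0.161%) in line 10E than in 11D, 44 in all (0.252%), with 1 library of 10E. In ethanol, with 2 libraries of each line, 216 were higher (1.24%) and 363 lower (2.08%), 579 in all (3.32%). Imprinted genes, which are expressed from 1 parental copy, held the largest of these differences. The noncoding RNAs of the Dlk1-Dio3 cluster on chromosome 12 were nearly absent from 10E: Rian was at 3.29, 169.6 and 158 CPM in the tagged libraries, 427, 339 and 345 CPM in untagged and 6.94, 9.78, 739.8 and 805 CPM in ethanol, where the first 2 values are 10E. Meg3 was at 3.73, 239.7 and 208, 199, 209 and 203 and 4.32, 7.51, 517 and 456 CPM in the same order. The low 10E level was therefore present without IAA. Grb10, another imprinted gene, went the other way: it was higher in 10E than in 11D under IAA (1.16 ± 0.18, adjusted p = 0.0103) and in ethanol (2.27, adjusted p = 3.34e-07), and was named after its values were seen.

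The tagged-minus-untagged differences of these genes mix the lines. With both lines averaged Rian was at -3.99 ± 0.17, -6.81 in 10E and -1.18 in 11D. Meg3 was called lower for the average (-2.82 ± 0.17), but in 11D its difference was 0.13 ± 0.13, adjusted p = 0.411, and without 10E replicate 1 it was 0.15. Plagl1, an imprinted zinc finger gene, was at 19.7, 265 and 241 CPM in the tagged libraries and 143, 131 and 128 CPM in the untagged ones: lower in 10E (-2.76) and higher in 11D (0.92), each called. The difference of the average, -0.92, turned to 0.94 without 10E replicate 1. In ethanol Plagl1 was at 28.7 and 31.7 CPM in 10E and 468 and 415 CPM in 11D. The line difference was therefore present without IAA, and both 11D IAA libraries lay below both 11D ethanol libraries. Impact was lower in 10E (-2.47 ± 0.22, adjusted p = 1.22e-06) and not called in 11D (-0.10 ± 0.14, adjusted p = 0.579), and without 10E replicate 1 the call of the average was lost (adjusted p = 0.681). Nnat, imprinted and silent in untagged cells, was at 7.24, 48.7 and 44.6 CPM against 0.694, 0.506 and 0.279 CPM, higher in both lines (4.01 in 10E and 6.69 in 11D). Peg3 (1.25 ± 0.11) and Dio3 (2.25 ± 0.42) were higher with no call between the lines. In the 25 tested imprinted genes outside the Dlk1-Dio3 cluster, 6 were called higher and 10 lower, and with library totals 9 and 9.

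**Figure D5:**
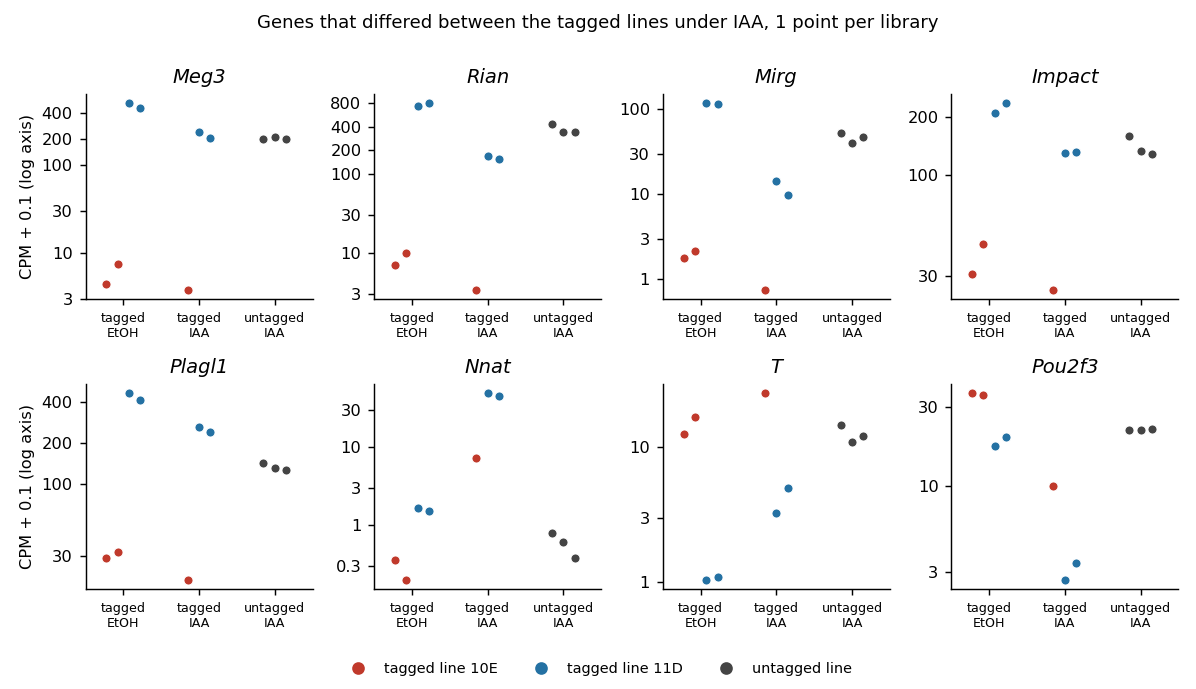
Levels of 8 genes that differed between the tagged lines under IAA (CPM plus 0.1, log axes) in each of the 10 libraries, 1 point per library, coloured by line. For Meg3, Rian, Mirg, Impact and Plagl1 the 10E points are low with and without IAA, and for T and Pou2f3 they are above the 11D points of the same treatment.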

How the data were processed

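RNA-seq read counts per gene symbol were used as deposited by the authors, in 10 library columns. Per the labels' protocols, RNA was extracted with TRIzol and libraries were made with a directional NEBNext kit. STAR, deepTools and the build mm10 stand in the submitters' processing notes. The counter, its annotation and its strand setting were not given in the sources used here. The authors' own table of fold changes concerns IAA against ethanol and was not used.

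From the counts, edgeR 4.0.16 (R 4.3.3) was run with TMM scaling, its default filter on low counts (17439 genes kept) and a quasi-likelihood F test. All 10 libraries shared 1 estimate of the spread, with 1 coefficient per line and treatment. The comparison is the mean of both tagged lines under IAA minus the untagged line under IAA, so the single 10E library weighs as much as both 11D libraries together and is assumed to vary like the other groups. Genes were called at a Benjamini-Hochberg adjusted p under 0.05. Standard errors are the log2 difference divided by the square root of F. The steps were tested on simulated data. Counting intervals and the floor of 3 counts cover counting error only.

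Genes named are Supt16 and Ssrp1, a panel of pluripotency, AhR, Y-linked and stress genes, the genes with the largest changes (no overlap between groups and 5 CPM or more in the higher group, or a mean of 50 CPM or more), up to 3 per list and direction by adjusted p, and the largest differences between the tagged lines, leaving out predicted genes; exceptions are marked in the text. The members, lists and classes were chosen with earlier results of these data known. Every count of list members called is to be read beside the 27.9% higher and 27.8% lower of all genes. Gene positions come from GENCODE vM21 (GRCm38), to which 97.6% of tested genes matched. Genes named here whose exons overlap another gene include Supt16, Ssrp1, Pou5f1, Mtf2, Srebf1, Pfkp, Top2a, Mipol1, Rian and Meg3, and their reads could be shared with it. Alternatives tried were DESeq2 1.42.0, library totals, no filter, the IAA libraries alone with 1 or 2 tagged groups, a replicate block, thinning to 3100127 counts, stricter thresholds and leaving out each IAA library. Figures were drawn with matplotlib 3.10.9.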

Additional observations from a re-analysis of the deposited data

Results flagged for a closer look

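Of the 44 genes called between the tagged lines under IAA, 12 are among the genes named by rule and are given here, in values of 10E minus 11D on the log2 scale (adjusted p from edgeR), with 1 library of 10E. Of these, 6 imprinted genes were lower in 10E: Meg3 by -5.9 (adjusted p = 1.64e-08), Rian by -5.63 (2.09e-08), Mirg by -4.05 (0.00115), Plagl1 by -3.68 (1.64e-08), Nnat by -2.68 (5.05e-04) and Impact by -2.37 (9.10e-05). All 6 were also lower in 10E in ethanol, where the differences ran from -6.51 for Rian to -2.59 for Impact.

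The other 6 named genes were higher in 10E. The mesoderm factor T differed by 2.52 (adjusted p = 6.52e-04) and stood at 25.2, 3.14 and 4.91 CPM in the tagged IAA libraries, 14.6, 10.95 and 12.1 CPM in the untagged and 12.4, 16.7, 0.934 and 0.986 CPM in the ethanol ones, where it was also higher in 10E. Mdfi differed by 2.8 (0.0345), Med12l by 1.74 (0.0345), Pou2f3 by 1.66 (0.0169), Nav2 by 1.57 (0.0183) and the death gene Pmaip1 by 1.05 (0.0337). In ethanol Nav2 (0.99) and Pou2f3 (0.94) were called higher in 10E too, while Mdfi (0.84), Pmaip1 (0.48) and Med12l (0.39) were not called. Groups of 3 were too small for a search for single outlying libraries.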

How the results depend on the processing

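Over the settings tried the count of genes called higher ran from 2934 (at least 2-fold required) to 6899 (library totals), against 4865, and the count called lower from 1863 (at least 2-fold) and 3006 (library totals) to 5084 (no filter), against 4843. Leaving out 1 library gave 3913 to 4706 higher and 4233 to 4828 lower, each lowest without 11D replicate 2. DESeq2 called 3871 higher and 3843 lower, with 7654 calls shared in the same direction and none opposite. With library totals line 11D had 3015 genes lower, and line 10E had 5539 higher and 2030 lower. Between the tagged lines, no filter gave 106 higher and 116 lower in 10E, and the IAA libraries alone gave 57 higher. With genes of at least 10 CPM the chromosome medians were -0.51 for X and -0.32 to -0.013 for autosomes.

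Of 268 named genes, 261 were called, and 253 to 267 kept direction and call under each alternative. Most were named because they were called in the main fit, so these counts do not speak for all genes. Of all 9708 calls, 7417 (replicate block) to 9311 (IAA libraries alone) were shared in the same direction. Directions that turned were those of Tiparp (0.24 with library totals, 0.04 without 10E replicate 1, 0.093 without untagged replicate 1, lowest -0.21 without untagged replicate 3), Meg3 (0.15 without 10E replicate 1, lowest -2.87), T (0.051 with library totals) and Plagl1 (0.40 with the IAA libraries as 2 groups, 0.37 with the replicate block, 0.94 without 10E replicate 1, lowest -0.95). For library totals the shift of all genes is part of the setting, and leaving out 10E replicate 1 leaves line 11D alone. For the other settings the cause was not tested.

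Same-numbered libraries did not deviate together (correlations -0.21, -0.05 and -0.28), so the numbers were not taken as pairs. A fit with the replicate block called 3796 genes higher and 3812 lower. Sets of 2 or 3 libraries and the smallest library, 3100127 counts, limit what can be called: thinned to that depth, 4088 genes were higher and 3922 lower.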

Other observations

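A stretch of chromosome 6 separated the tagged lines with and without IAA. Of the 44 genes called between the lines under IAA, 12 lay between 88 and 93 Mb of chromosome 6 (GRCm38). That segment was chosen after the values were seen. It held 26 genes at 10 CPM or more, and all 26 were lower in 10E than in 11D under IAA (median -1.01) and in ethanol (median -0.92). Of all 9523 genes at that level, 5553 were lower in 10E under IAA and 4661 in ethanol. Sec61a1, a channel of the endoplasmic reticulum, was at 120.2, 278 and 296 CPM in the tagged IAA libraries and 132, 142, 242 and 253 CPM in the ethanol ones, where the first 2 are 10E. Slc6a6, the taurine transporter, was at 83.3, 234 and 215 and 212, 237, 503 and 546 CPM, and Mcm2, of the replicative helicase, at 120.4, 236 and 218 and 293, 312, 488 and 421 CPM. The untagged libraries held 162, 173 and 176 CPM of Sec61a1 and 274, 355 and 319 CPM of Mcm2. In ethanol the segment's median against the untagged IAA cells was 0.63 in 11D and -0.30 in 10E. The rest of chromosome 6 had a median of -0.03 between the lines under IAA, and the other windows of 5 Mb with at least 10 such genes ran from -0.31 to 0.19. The cause was not tested. For Mcm2 and its neighbours the difference from untagged cells therefore carries a line difference that was there without IAA.

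Of the 44 genes called under IAA, 35 were called in the same direction in ethanol, 79.5% of the IAA calls and 6.04% of the ethanol calls.

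Zinc finger genes named Zfp leaned lower under IAA, with 156 of 339 called lower (46.0%, against 27.8% of all genes) and 41 higher and a median tagged minus untagged difference of -0.39. This class was looked at after the values were seen.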
